A study of Homo sapiens with 23 samples.

Results

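The ligands and receptors of the ERBB family were examined in 4 ovarian cancer cell lines, OV-90, Kuramochi, OVSAHO and EFO-21, each in a parental form and in a form with acquired resistance to prexasertib, an inhibitor of the checkpoint kinase CHK1. The resistant forms were derived by culture in increasing concentrations of the drug. The labels name 1 resistant form of each line and do not say whether its replicates came from 1 derivation. The tests below may therefore not cover the spread between separate derivations. Each of the 8 groups holds 3 biological replicates, except parental OV-90 with 2, for a total of 23 RNA-seq libraries, which are named here by the library number in the table (2 to 24). The 10 members, found by their NCBI Gene ID among 21658 genes, are 7 ligands (EREG, AREG, TGFA, HBEGF, BTC, EGF and NRG1) and 3 receptors (EGFR, ERBB2 and ERBB3). All 10 members were in the table. The family was chosen by the values of EREG, which differed between parental and resistant libraries upward in 3 lines and downward in EFO-21. EREG is therefore described with no test, and the other 9 members were tested.

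ERBB receptors are receptor tyrosine kinases of the cell surface. EGFR binds EGF, TGF-alpha, amphiregulin, epiregulin, betacellulin and HB-EGF, whereas ERBB3 is a receptor for neuregulins with little kinase activity of its own, and ERBB2 has no known ligand and acts as the preferred dimer partner of the others. The ligands are made as membrane-anchored precursors that are released by ADAM proteases. Active receptors recruit adaptors that feed the RAS-RAF-MEK-ERK and PI3K pathways, ERK induces both ligands and inhibitors of the pathway, and EGFR and ERBB2 are well-studied receptors in epithelial tumors, ovarian carcinoma included.

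EREG, AREG and BTC lie near each other on the long arm of chromosome 4, in a region that also holds a cluster of CXC chemokine genes. In GRCh37, the build of the authors' alignment, EREG spans chr4:75230862-75254466 and AREG chr4:75310853-75320722, both on the plus strand, and BTC spans chr4:75669969-75719733 on the minus strand. The AREG start is 79.991 kb and the BTC start 488.871 kb from the EREG start. The 250 bases before the start of these 3 ligand genes are shown because all 3 genes showed their largest decrease in the same line, EFO-21. They come from the RefSeq promoter table (GRCh38.p14), at chr4:74364895-74365144 for EREG and chr4:74444886-74445135 for AREG, both plus strand, and chr4:74794524-74794773, minus strand, for BTC. Capitals mark matches on either strand to the motifs searched. These were the AP-1 site with the letters TGANTCA, the cAMP response element (CRE) with the letters TGACGTCA and the SP1 site (GGGCGG). The TATA box with the letters TATAAA and 1 narrow form of the NF-kappaB site were also searched. Other forms of the NF-kappaB site were not searched, so their absence from these windows is not shown.
EREG: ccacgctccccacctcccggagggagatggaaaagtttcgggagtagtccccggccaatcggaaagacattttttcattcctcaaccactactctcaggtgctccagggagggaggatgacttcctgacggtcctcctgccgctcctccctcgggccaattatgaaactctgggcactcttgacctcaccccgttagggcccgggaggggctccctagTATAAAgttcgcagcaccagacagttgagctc
AREG: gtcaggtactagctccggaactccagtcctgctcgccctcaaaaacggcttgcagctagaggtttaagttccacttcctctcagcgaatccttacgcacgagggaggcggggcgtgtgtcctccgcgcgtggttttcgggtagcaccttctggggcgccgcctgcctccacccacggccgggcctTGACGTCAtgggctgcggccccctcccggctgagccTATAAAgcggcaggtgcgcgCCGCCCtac
BTC: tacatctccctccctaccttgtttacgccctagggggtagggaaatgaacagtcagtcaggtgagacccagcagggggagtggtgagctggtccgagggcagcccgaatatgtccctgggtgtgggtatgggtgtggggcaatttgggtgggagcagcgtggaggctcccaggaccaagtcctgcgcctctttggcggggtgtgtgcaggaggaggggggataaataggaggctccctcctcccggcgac
The EREG window held 1 match, to TATA, 32 bases before the start. The AREG window held a CRE match 65 bases, a TATA match 29 bases and an SP1 match 9 bases before the start, and the BTC window held no match to these letters. Among 35116 promoters of the same length, 10.7% held TATA, 1.65% CRE, 42.6% SP1, 6.57% AP-1 and 0.527% the searched form of NF-kappaB. The motifs do not overlap each other in these windows, and a match of letters is not evidence of a bound site.

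Expression is given on a log2 scale as quantile normalized by the authors, so a shift shared by most genes would not be seen. The sources do not say whether values are scaled to gene length. Levels are therefore compared within a gene, and the share of genes below EREG gives only its place among the values of a library. The lowest 10 percent of each library, which ends at a value between 1.70 and 1.87, is called the bottom, and folds that start or end there are not measured folds. A gene was called changed where it differed by 2-fold or more with an adjusted p under 0.05 (limma, Benjamini-Hochberg over all 21658 genes). In these bulk samples, fewer cells expressing a gene and less RNA per cell cannot be told apart. Of 10 ovarian carcinoma and epithelial markers, 7 to 10 were above the bottom in every library. CDH6, KRT8 and KRT18 were at 8.67 or higher in all 23 libraries, while WT1 was at 2.09 or lower in OV-90 and EFO-21, and PAX8, a Mullerian marker, at 2.43 or lower in OV-90. Libraries of the same group correlated at 0.971 to 0.988 (Pearson r, across genes) except the parental OV-90 pair at 0.952, and no pair was identical. Among 12 blood, endothelial and fibroblast markers, 11 and 8 were above the bottom in parental OV-90 libraries 2 and 3. The number was 9 in each resistant OV-90 library. It was 8 to 10 in parental and 6 to 7 in resistant Kuramochi, and 7 to 10 in parental and 5 to 6 in resistant OVSAHO. In EFO-21 it was 8 in parental and 9 to 10 in resistant libraries. Their summed linear level was 5821 and 9902 in parental OV-90 libraries 2 and 3 and 4451 to 4879 in the resistant ones. In parental and resistant libraries, it was 236 to 328 and 395 to 418 in Kuramochi and 153 to 224 and 139 to 190.1 in OVSAHO. In EFO-21 it was 1125 to 1215 and 1234 to 1299. A linear sum is carried by its highest genes. These were LUM in OV-90 (group means of 12.76 and 12.10) and CDH5 (9.11 and 9.33) and PECAM1 (8.48 and 8.55) in EFO-21. By the test, 0 of the 12 rose and 1 fell in OV-90, 3 rose and 3 fell in Kuramochi, 2 rose and 5 fell in OVSAHO, and 1 rose and 1 fell in EFO-21. The hemoglobin gene HBB was at 6.76 in parental OV-90 library 2, 4.68 in parental Kuramochi library 6 and 4.92 to 5.72 in the 3 parental OVSAHO libraries, against 0.01 to 0.02 in resistant OVSAHO. It was also at 1.94 to 4.21 in resistant OV-90, beside 1.85 in parental library 3. COL1A2, a fibroblast collagen gene, was at 6.70, 5.11 and 4.83 to 5.26 in the same libraries. Of the 10 ovarian and epithelial markers, 7 fell in Kuramochi and 5 in OVSAHO, 1 rose in EFO-21 and 0 were called in OV-90. The largest falls were those of KRT19, EPCAM and CDH1 in Kuramochi (-3.96, -3.78 and -3.00). In OVSAHO they were those of MUC16, EPCAM and KRT19 (-4.59, -3.01 and -2.31), where the parental libraries are those with HBB and COL1A2, which cannot be told apart from the change of the line. CDH1 rose in EFO-21 (1.39). For comparison with both lists, 11.8% of all genes were called higher and 10.6% lower in Kuramochi, and 3.93% and 3.83% in OVSAHO. In EFO-21 the shares were 7.11% and 7.15%, and in OV-90 9.5% and 6.56%.

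EREG, which encodes epiregulin, was among the highest values of the table in parental EFO-21 and at or near the lowest values in the other parental lines. Its values were 13.73, 13.63 and 13.64 in parental EFO-21 and 5.11, 5.46 and 4.76 in resistant EFO-21. The groups did not overlap, and the difference, from 13.66 ± 0.05 (SD, n = 3) to 5.11 ± 0.35 (n = 3), was -8.55, the second lowest of all 21658 genes in that line. In OV-90, EREG was at 0.22 and 0.18 in the parental libraries and at 4.24, 4.10 and 3.89 in the resistant libraries. In Kuramochi it was at 0.01, 0.01 and 0.03 in the parental libraries and at 3.93, 3.30 and 3.88 in the resistant ones. In OVSAHO it was at 0.02, 2.07 and 1.79 in the parental libraries and at 3.89, 3.91 and 4.33 in the resistant ones. The parental and resistant libraries were therefore separate in every line, with log2 differences of 3.87 in OV-90, 3.68 in Kuramochi and 2.75 in OVSAHO, each starting from parental libraries at the bottom (all of them in OV-90 and Kuramochi, and 2 of 3 in OVSAHO). By size these ranked 19th, 217th and 72nd among the positive differences of all genes. Without parental library 2 in OV-90 and library 6 in Kuramochi, where HBB, PPBP and COL1A2 were all high, the differences were 3.89 and 3.69. In OVSAHO all 3 parental libraries held those genes, so no such comparison was possible there. The parental OVSAHO values had an SD of 1.11, and leaving out 1 library gave EREG differences of 2.11 to 3.13. The 9 resistant libraries of these 3 lines lay between 3.30 and 4.33, and their group means of 4.07 ± 0.18 in OV-90, 4.04 ± 0.25 in OVSAHO and 3.70 ± 0.35 in Kuramochi (SD, n = 3 each) overlapped in range, whereas all 3 resistant EFO-21 libraries were above them. EREG thus held the widest spread between parental lines among the members, and a narrower one between the resistant forms.

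**Figure D1:**
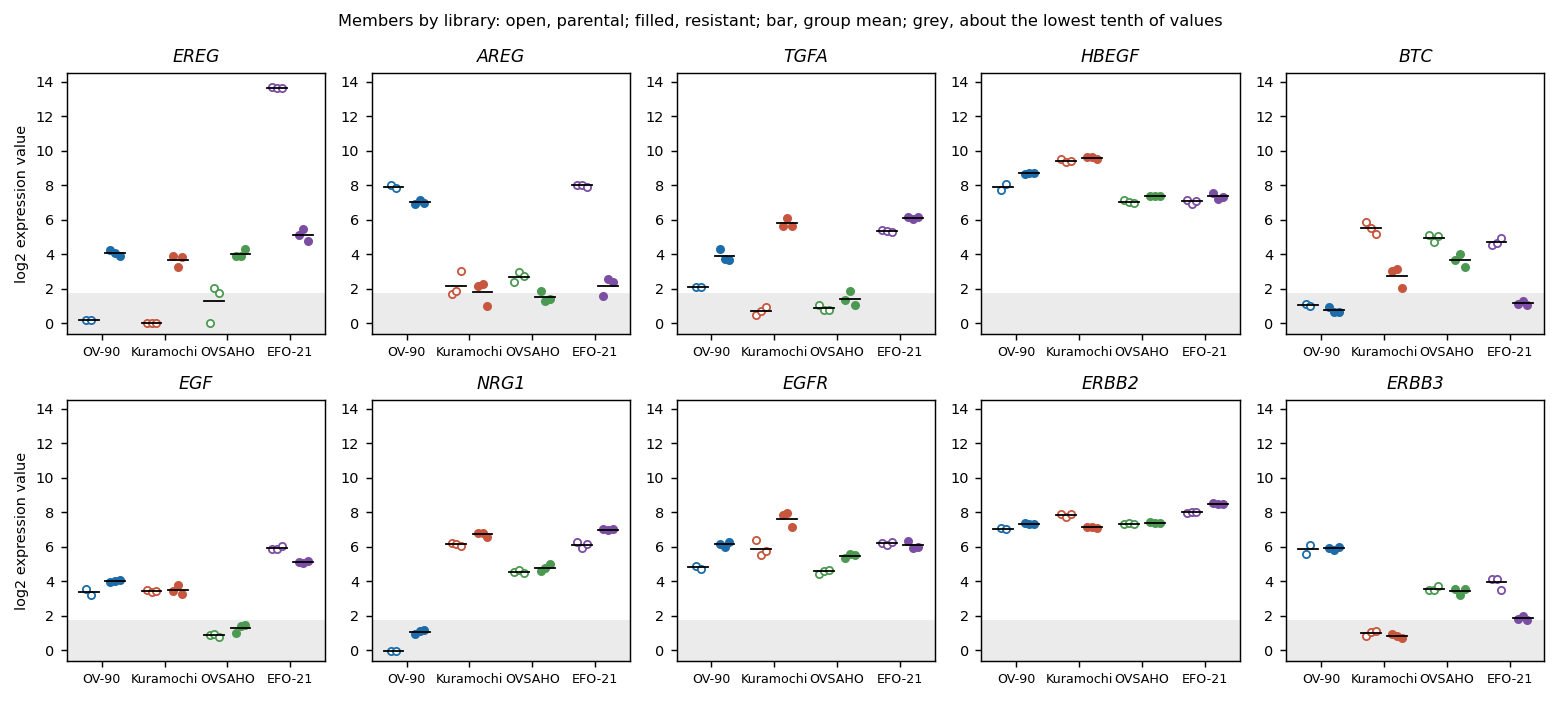
Log2 expression value (y axis) of each member in each library, by cell line (x axis), with open points for parental and filled points for resistant libraries, black bars for group means and grey for the range below the lowest library's 10th percentile (1.70). EREG runs from 13.73 in a parental EFO-21 library down to 0.01 in parental Kuramochi, while ERBB2 stays between 7.05 and 8.53 in all libraries.

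The value of EREG rests on 1 exon, and the low values of the 4703 genes with 1 exon fall on repeated steps in each library. EREG shared the lowest step in parental OV-90 and parental Kuramochi, where 1288, 1169, 696, 746 and 871 other genes had exactly the same value in libraries 2, 3, 4, 5 and 6. In parental OVSAHO it was on the lowest step in library 7 and 2 steps above it in libraries 8 and 9. In the 9 resistant libraries of OV-90, Kuramochi and OVSAHO it was 10 to 20 steps above the lowest, at a value that 31 to 98 other genes shared. The resistant libraries of EFO-21 were at 33, 42 and 50 steps. The height of a step differed between libraries, and the second step above the lowest stood at 3.24 and 2.90 in the parental OV-90 libraries but at 2.43 to 2.44 in the resistant ones. Because a move of a few steps at the bottom spans several log2 units, the EREG differences in OV-90, Kuramochi and OVSAHO place it above the lowest step rather than measuring a fold change. In parental EFO-21, by contrast, 99.4% of genes were below EREG in each library, and in resistant EFO-21 33.3%, 37.5% and 42.1% were.

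**Figure D2:**
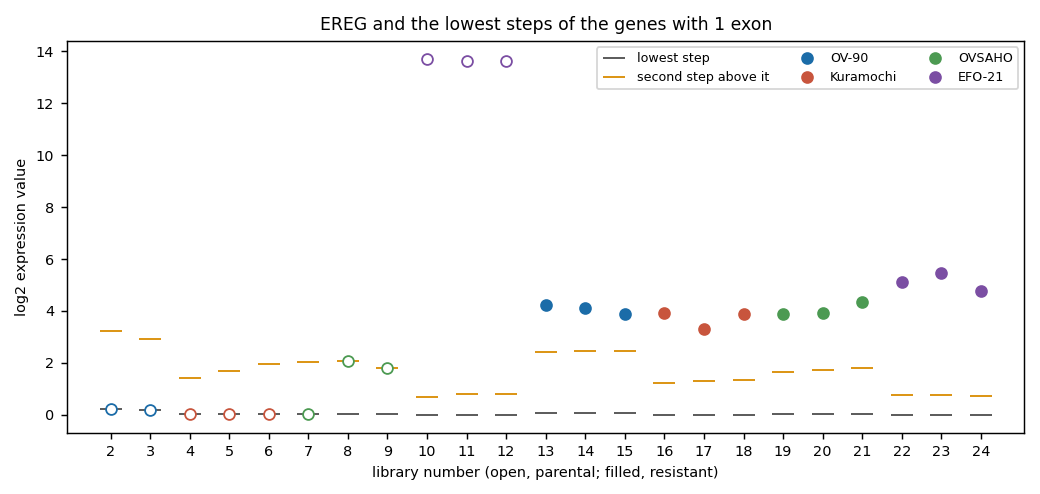
Log2 expression value of EREG (points) in each library (x axis, library number), with the lowest value of the genes with 1 exon (grey bars) and the second step above it (orange bars). EREG sits on the grey bar in parental OV-90, Kuramochi and OVSAHO library 7, on the orange bar in OVSAHO libraries 8 and 9, and above both in all 12 resistant libraries.

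AREG, which encodes amphiregulin, fell in EFO-21 and OVSAHO. In EFO-21 its values were 8.03, 8.05 and 7.93 in the parental libraries and 1.61, 2.57 and 2.41 in the resistant ones, so the groups were far apart and 1 resistant library reached the bottom. The difference was -5.81 ± 0.26 (SE, adjusted p = 4.46e-05, limma), the 11th largest fall of all genes in that line. In OVSAHO, AREG was at 2.39, 2.99 and 2.77 in the parental libraries and at 1.86, 1.31 and 1.43 in the resistant ones, a difference of -1.18 ± 0.24 (adjusted p = 0.0136, limma) between low values. That call was lost without resistant library 20 (adjusted p = 0.0504, limma), and the 3 parental libraries with the higher AREG values are those in which HBB, PPBP and COL1A2 were high, so that the line's change and the difference in those libraries cannot be told apart. AREG was high in OV-90, at 8.01 and 7.82 in the parental and 6.91, 7.18 and 7.0 in the resistant libraries, a decrease by less than 2-fold (-0.89 ± 0.12, adjusted p = 0.0153, limma). In Kuramochi it was low throughout, at 1.69, 1.86 and 3.04 in the parental libraries and 2.14, 2.30 and 1.01 in the resistant ones, with overlapping groups, and its small difference of -0.37 ± 0.50 turned to 0.049 without parental library 6, which also holds the blood genes, and to 0.028 without resistant library 18. The part of those genes in the AREG values was not tested.

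The AREG values carry a further limit. GRCh37 holds a second copy of the gene at chr4:75480629-75490481 that is 99.6% identical over the whole length of AREG. A second row of the table, whose gene ID had no symbol in the reference used here and was known from earlier work on these data to follow AREG, differed from AREG by a median of 0.0967 and at most 0.55 log2 units over the 23 libraries. How reads were divided between the copies is not given in the sources used here, so the AREG level is uncertain. The row gave the same calls as AREG in OVSAHO (-1.11 ± 0.24, adjusted p = 0.0161, limma) and EFO-21 (-5.91 ± 0.17, adjusted p = 1.51e-05, limma). Because the row was known to follow AREG, its calls are not separate evidence for those of AREG.

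BTC, which encodes betacellulin, a ligand of EGFR and of the neuregulin receptor ERBB4, fell in 3 lines. In EFO-21 it was at 4.57, 4.68 and 4.94 in the parental libraries and at 1.15, 1.33 and 1.04, all at the bottom, in the resistant ones (-3.56 ± 0.17, adjusted p = 5.58e-05, limma). In Kuramochi it fell from 5.87, 5.55 and 5.17 to 3.06, 3.16 and 2.06 (-2.77 ± 0.36, adjusted p = 0.00128, limma). In OVSAHO it fell from 5.11, 4.70 and 5.06 to 3.69, 4.02 and 3.27 (-1.30 ± 0.24, adjusted p = 0.00988, limma), where the parental libraries are again those with HBB, PPBP and COL1A2, which cannot be told apart from the change of the line. The parental and resistant libraries did not overlap in any of these lines. In OV-90 all 5 libraries were at the bottom, between 0.66 and 1.14, and no fold change could be measured. The parental means of the other 3 lines, 5.53 ± 0.35 in Kuramochi, 4.96 ± 0.22 in OVSAHO and 4.73 ± 0.19 in EFO-21 (SD, n = 3 each), were closer to each other than the resistant means of 2.76, 3.66 and 1.17.

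TGFA, which encodes transforming growth factor alpha, moved the other way. In Kuramochi it was at 0.49, 0.74 and 0.96, all at the bottom, in the parental libraries and at 5.65, 6.11 and 5.64 in the resistant ones. This was a difference of 5.07 ± 0.24 (adjusted p = 2.66e-05, limma) that ranked 60th among all rises in that line, but as a rise from the bottom it is not a measured fold. In OV-90 TGFA rose from 2.12 and 2.09 to 4.29, 3.73 and 3.70 (1.80 ± 0.27, adjusted p = 0.0172, limma). EFO-21 had the highest parental level, with 5.39, 5.36 and 5.31 against 6.19, 6.04 and 6.14 in the resistant libraries, a non-overlapping increase of less than 2-fold (0.77 ± 0.09, adjusted p = 0.000896, limma). In OVSAHO 5 of the 6 libraries were at the bottom, all between 0.78 and 1.85. The resistant level was thus at 6.12 ± 0.08 in EFO-21, 5.80 ± 0.27 in Kuramochi, 3.91 ± 0.33 in OV-90 and 1.43 ± 0.40 in OVSAHO (SD, n = 3 each), and of these neighbors the ranges of EFO-21 and Kuramochi overlapped.

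The other 3 ligands changed less. HBEGF, which encodes the heparin-binding EGF-like growth factor, was expressed in every library, from 6.92 in parental EFO-21 to 9.67 in resistant Kuramochi, and was called in no line. Its differences were 0.77 ± 0.12 in OV-90 (adjusted p = 0.0193, limma) and 0.34 ± 0.06 in OVSAHO (adjusted p = 0.0113, limma), both without overlap of the groups and under 2-fold. EGF was highest in EFO-21, where it was at 5.88, 5.85 and 6.03 in the parental and 5.10, 5.05 and 5.2 in the resistant libraries (-0.81 ± 0.10, adjusted p = 0.00137, limma), and all 6 OVSAHO libraries were at the bottom. NRG1, a neuregulin that binds ERBB3 and ERBB4, was at 4.50 or higher in every library of Kuramochi, OVSAHO and EFO-21. It was higher by less than 2-fold in resistant EFO-21 (0.88 ± 0.10, adjusted p = 0.00113, limma) and resistant Kuramochi (0.57 ± 0.11, adjusted p = 0.00635, limma), again without overlap. In OV-90 the NRG1 values passed the test (1.08 ± 0.14, adjusted p = 0.0142, limma) although all 5 libraries, between -0.02 and 1.16, were at the bottom, so the call describes no measured fold.

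Among the receptors, EGFR rose in OV-90 and Kuramochi. It was at 4.91 and 4.74 in the parental and 6.16, 6.02 and 6.27 in the resistant OV-90 libraries (1.33 ± 0.15, adjusted p = 0.0120, limma). In Kuramochi it was at 6.41, 5.54 and 5.75 against 7.83, 7.94 and 7.15 (1.74 ± 0.30, adjusted p = 0.00405, limma), the highest EGFR level of the study. In OVSAHO the parental values of 4.44, 4.61 and 4.67 and the resistant values of 5.33, 5.60 and 5.54 did not overlap, but the difference of 0.92 ± 0.13 (adjusted p = 0.00397, limma) was under 2-fold. In EFO-21 the groups overlapped, at 6.23, 6.13 and 6.28 in parental and 6.34, 5.94 and 5.97 in resistant libraries (-0.13 ± 0.13, adjusted p = 0.430, limma). EGFR, which binds epiregulin as ERBB4 also does, was therefore above the bottom in all 23 libraries, and its resistant level in EFO-21 (6.08 ± 0.23) was within the range of the values in resistant OV-90 (6.15 ± 0.12).

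ERBB2, the coreceptor without a ligand of its own, had the smallest spread between groups of the members, with group means from 7.06 to 8.5, and was called in no line. It was lower in resistant Kuramochi (-0.72 ± 0.07, adjusted p = 0.000497, limma) and higher in resistant EFO-21 (0.51 ± 0.04, adjusted p = 0.000174, limma), in each case without overlap and by less than 2-fold. ERBB3, the neuregulin receptor, fell in EFO-21, where it was at 4.16, 4.12 and 3.53 in the parental libraries and at 1.79, 1.98 and 1.78 in the resistant ones (-2.09 ± 0.22, adjusted p = 0.000746, limma). Of those 3 resistant libraries, 2 were at the bottom. ERBB3 was highest in OV-90 (5.61 to 6.13), between 3.21 and 3.72 in OVSAHO with overlapping groups, and at the bottom in all 6 Kuramochi libraries.

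**Figure D3:**
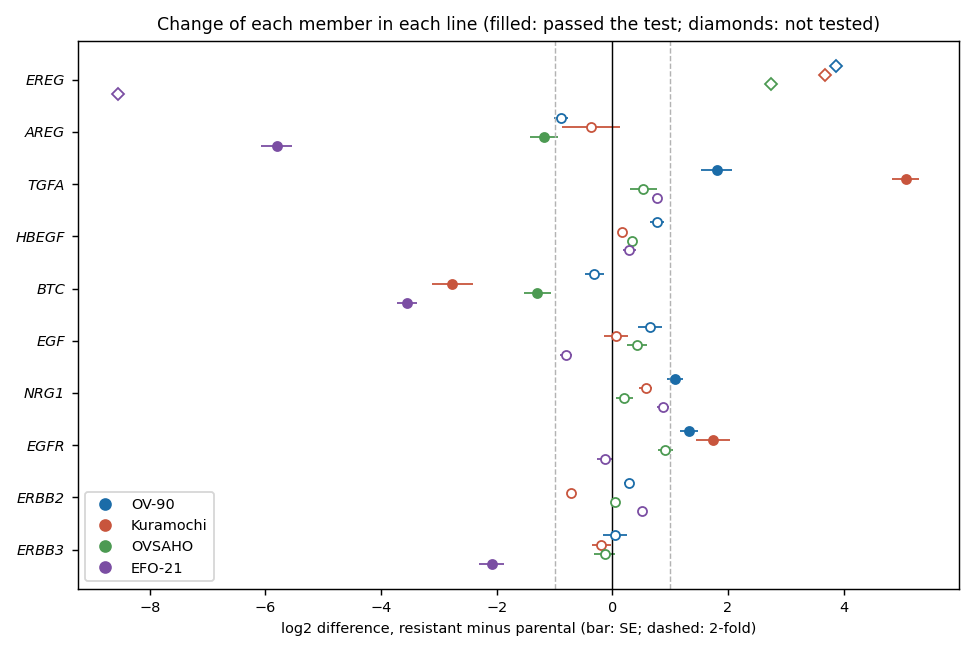
Log2 difference between resistant and parental group means (x axis) of each member (y axis) in each line, with SE bars. Filled circles passed the test, open circles did not, and the EREG diamonds were not tested. The EFO-21 points of AREG (-5.81), BTC (-3.56) and ERBB3 (-2.09) lie far to the left, and the Kuramochi point of TGFA (5.07) far to the right.

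Counted over the 9 tested members, 3 rose and 0 fell in OV-90, where 9.5% of all genes were called higher and 6.56% lower. In Kuramochi 2 rose and 1 fell (11.8% and 10.6% of all genes), in OVSAHO 0 rose and 2 fell (3.93% and 3.83%), and in EFO-21 0 rose and 3 fell (7.11% and 7.15%). The median log2 difference of the 9 was 0.65 in OV-90, 0.06 in Kuramochi, 0.21 in OVSAHO and -0.13 in EFO-21, beside -0.06, -0.02, 0.00 and 0.01 over all genes. The member calls of OV-90 rested on every resistant library. Without resistant library 13, 14 or 15 none of EGFR, TGFA and NRG1 was called (adjusted p = 0.057 to 0.0765, limma), although the differences were of similar size (1.27 to 1.39 for EGFR, 1.61 to 1.91 for TGFA and 1.04 to 1.15 for NRG1). The calls over all genes in the line, 2058 rises and 1420 falls, came down to 309, 425 and 356 in all. Leaving out a parental library leaves only 1 in that group, so no count is given for those fits.

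The differences between lines were tested directly, by setting the change in 1 line against the mean change of the other 3 in a fit of all 23 libraries, by the same rule. For EFO-21, 6 of the 9 members were called (17.2% of all genes in either direction), all lower. These were AREG (-4.99 ± 0.41, adjusted p = 2.10e-08, limma), BTC (-2.10 ± 0.31, adjusted p = 3.10e-05, limma), ERBB3 (-2.0 ± 0.23, adjusted p = 1.33e-06, limma), TGFA (-1.70 ± 0.25, adjusted p = 2.81e-05, limma), EGFR (-1.46 ± 0.24, adjusted p = 6.94e-05, limma) and EGF (-1.19 ± 0.19, adjusted p = 5.94e-05, limma). EFO-21 was also the line in which EREG was lower. TGFA did not fall there. Its difference of 0.77 in EFO-21 lay between 0.54 in OVSAHO and 1.80 in OV-90, and the mean of the other lines, 2.47, includes the Kuramochi difference of 5.07 from the bottom, which is not a measured fold. Neither EGFR nor EGF was called in the comparison within EFO-21. The means of the other lines include OV-90 for BTC, Kuramochi for ERBB3 and OVSAHO for EGF. In each of those lines, all libraries were at the bottom for that gene. In resistant EFO-21, 3 libraries for BTC and 2 for ERBB3 were also at the bottom, so neither of these differences is a measured fold. For Kuramochi, 4 members were called (25.8% of all genes): TGFA (4.04 ± 0.25, adjusted p = 2.15e-10, limma), AREG (2.25 ± 0.41, adjusted p = 0.000137, limma) and EGFR (1.04 ± 0.24, adjusted p = 0.00112, limma) were higher than the mean of the other lines and BTC was lower (-1.05 ± 0.31, adjusted p = 0.00867, limma). The mean for BTC includes OV-90, where the gene was at the bottom, and the Kuramochi difference of -2.77 lay between -1.30 in OVSAHO and -3.56 in EFO-21. The Kuramochi calls of EGFR and BTC fell under 2-fold without libraries 5, 6, 16 or 17 and 4, 18 or 20, respectively. For OV-90, AREG (1.57 ± 0.44, adjusted p = 0.00652, limma) and BTC (2.23 ± 0.34, adjusted p = 3.88e-05, limma) were called (21.6% of all genes), the second for a gene at the bottom in that line. For OVSAHO, AREG (1.17 ± 0.41, adjusted p = 0.0360, limma) and TGFA (-2.01 ± 0.25, adjusted p = 7.85e-06, limma) were called (10.7% of all genes), and the AREG call was lost without library 2, 7, 9, 19 or 21 (adjusted p = 0.0507 to 0.108, limma). The TGFA difference of OVSAHO, like that of EFO-21, is set against a mean that includes the Kuramochi value of 5.07, and within OVSAHO the TGFA difference was 0.54, beside 0.77 in EFO-21. The positive AREG differences in OV-90, Kuramochi and OVSAHO are set against means that include the EFO-21 fall of 5.81. ERBB2 in Kuramochi differed from the other lines by -1.0 ± 0.06 (adjusted p = 1.44e-10, limma), just under the fold limit, and passed it in 13 of the fits that left out 1 library.

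Of the other family members, NRG2, NRG3, NRG4 and ERBB4 were measured. NRG4, a ligand of ERBB4, fell in Kuramochi (from 4.68 to 2.36) and EFO-21 (from 5.43 to 4.23). NRG2 rose in OVSAHO (from 2.91 to 4.72) and fell in EFO-21 (from 1.83 to 0.61, the latter at the bottom). NRG3 fell in OVSAHO (from 3.45 to 0.96, at the bottom), and ERBB4, the other neuregulin receptor, fell in Kuramochi (from 5.53 to 4.42). Thus 0 of these 4 genes rose or fell in OV-90, 2 fell in Kuramochi, 1 rose and 1 fell in OVSAHO, and 2 fell in EFO-21, with list medians of -0.34, -0.76, 0.32 and -0.58. Over all genes 10.6% were called lower in Kuramochi, 3.93% higher and 3.83% lower in OVSAHO, and 7.15% lower in EFO-21. In OV-90, NRG3 was at 6.82 in the parental and 6.04 in the resistant libraries, a difference of under 2-fold. The OVSAHO changes of NRG2 and NRG3 carry the limit given above for AREG and BTC there, since the parental libraries are those with HBB, PPBP and COL1A2.

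Of 9 genes for the release and trafficking of the ligands, 3 rose and 1 fell in OV-90, 1 rose in Kuramochi, 0 were called in OVSAHO, and 1 rose and 1 fell in EFO-21. The single genes in Kuramochi and EFO-21 are near the shares over all genes (11.8% higher in Kuramochi, 7.11% higher and 7.15% lower in EFO-21). In OV-90, 9.5% of all genes were called higher and 6.56% lower. ADAM17, the main sheddase of EREG, AREG and TGFA, which is named for its role and after its values were seen, was called in no line, with differences from 0.04 in EFO-21 to 0.90 in OV-90. In OV-90, ADAM12, ADAM9 and ADAM10 were higher (by 2.27, 1.63 and 1.20), and TIMP3, an inhibitor of metalloproteases such as ADAM10 and ADAM17, was lower (-2.21). ADAM12 was also higher in Kuramochi (5.78) and lower in EFO-21 (-2.67), and TIMP3 was higher in EFO-21 (1.61). The ADAM12 value rests on 2 exons, and its parental OV-90 and resistant EFO-21 libraries were at the bottom. Of 11 receptor adaptors, 5 rose in OV-90, 1 rose and 1 fell in Kuramochi, 1 rose in OVSAHO and 1 fell in EFO-21, beside 9.5% of all genes higher in OV-90, 11.8% higher and 10.6% lower in Kuramochi, 3.93% higher in OVSAHO and 7.15% lower in EFO-21. GAB1, a docking protein for activated EGFR, rose in OV-90 (2.17) and Kuramochi (1.30) and fell in EFO-21 (-1.47). GRB7, an adaptor that binds ERBB2, fell in Kuramochi (-3.47), where ERBB2 was also lower. PIK3R1, the regulatory subunit of PI3K, rose in OV-90 (1.80) and OVSAHO (1.10), and PTPN11 rose in OV-90 (1.55). Of 11 genes of the RAS-RAF-MEK-ERK core, only NRAS in OV-90 was called (1.06). This single gene is near the 9.5% of all genes called higher in that line. The OV-90 counts of these lists carry the limit given above for the calls of that line. The parental OV-90 libraries lay apart for some of these genes, with an SD of 1.02 for ADAM9, 0.91 for PTPN11 and 0.78 for PIK3R1. For GAB1 it was 0.005.

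Some of the genes that ERK signaling induces were called in each line. Of 10 ERK output genes, 4 rose and 0 fell in OV-90, 3 rose and 0 fell in OVSAHO, 2 rose and 3 fell in Kuramochi, and 0 rose and 5 fell in EFO-21, with list medians of 0.87, 0.56, -0.54 and -0.92 in that order. Over all genes, 9.5% were called higher and 6.56% lower in OV-90, 3.93% and 3.83% in OVSAHO, 11.8% and 10.6% in Kuramochi, and 7.11% and 7.15% in EFO-21. PHLDA1, an early target of ERK signaling, was at 11.07 ± 0.07 in parental and 8.64 ± 0.09 in resistant EFO-21 (-2.43 ± 0.06, adjusted p = 1.17e-05, limma), while it rose in Kuramochi (2.03) and OVSAHO (1.30). The phosphatase gene DUSP4, which restrains ERK, rose in OVSAHO from the bottom (3.27) and in Kuramochi (1.39) and fell in EFO-21 (-1.45). The transcription factor gene ETV4 fell from 4.56 to 1.81 in EFO-21. SPRY2, a feedback inhibitor of receptor tyrosine kinases, fell in EFO-21 (-1.87) and Kuramochi (-2.0) and rose in OV-90 (1.15). DUSP6, SPRY4 and CCND1 rose in OV-90 (1.59, 1.59 and 1.31), SPRY4 rose in OVSAHO (1.47), and DUSP6 and EPHA4 fell in Kuramochi (-1.12 and -2.45). Of 17 inhibitors of ERBB signaling, of which SPRY2, SPRY4, DUSP4 and DUSP6 are also among the ERK output genes, 9 rose and 0 fell in OV-90, 1 rose and 4 fell in Kuramochi, 3 rose and 0 fell in OVSAHO, and 0 rose and 4 fell in EFO-21. Their medians were 1.08, -0.42, 0.55 and -0.12, and the shares over all genes are those given for the ERK output genes, so that the single rise in Kuramochi is below the 11.8% of all genes. In OV-90 the largest rises in that list were those of DUSP5 (1.63), CBL (1.63), an E3 ligase for EGFR, and DUSP6. LRIG1, which promotes degradation of ERBB receptors, rose in OV-90 (1.08) and OVSAHO (1.04) and fell in Kuramochi (-1.37). SPRY1 fell in Kuramochi (-2.38) and EFO-21 (-1.64). No test of the lists was made. The OV-90 counts carry the limit given above for the calls of that line.

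**Figure D4:**
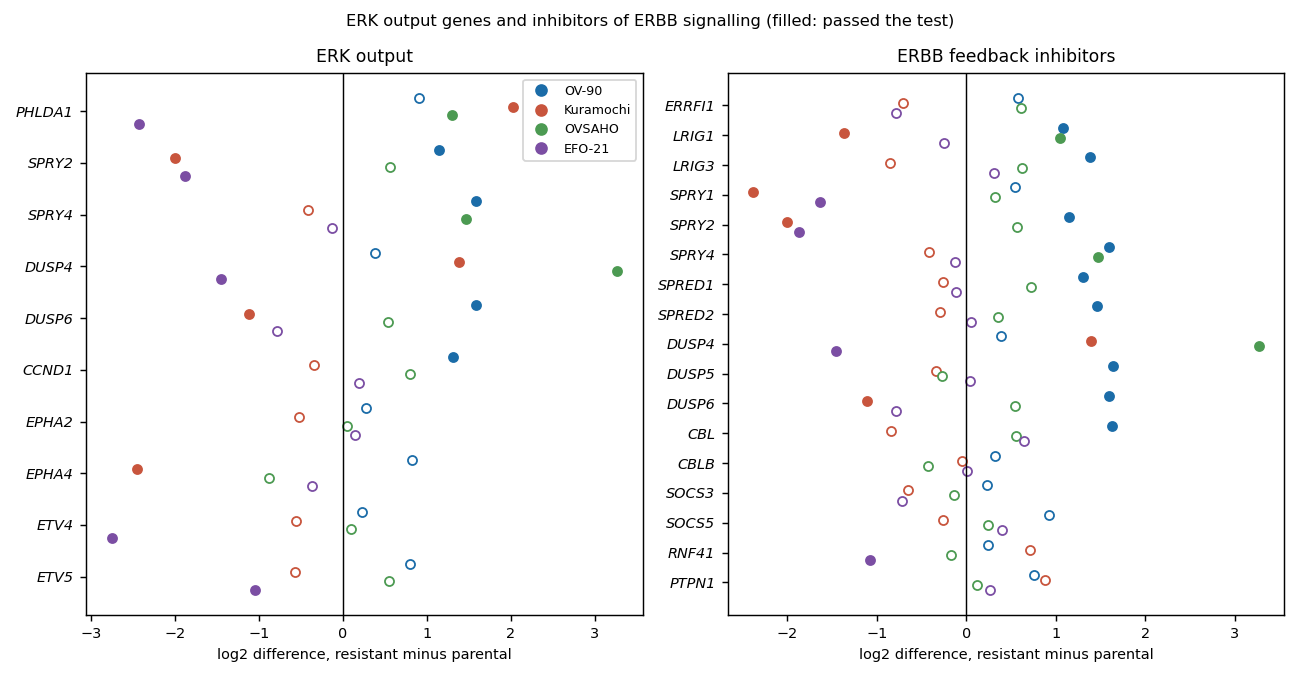
Log2 difference between resistant and parental group means (x axis) for the 10 ERK output genes (left) and the 17 inhibitors of ERBB signaling (right), with lines by color and filled points for genes that passed the test. OV-90 points (blue) lie mostly to the right and EFO-21 points (purple) mostly to the left among the ERK output genes, with PHLDA1 at -2.43 in EFO-21.

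Of the genes along chromosome 4 around EREG, 15 were tested. In EFO-21, 8 fell and 0 rose: AREG, BTC, CXCL6, CXCL1, CXCL5, CXCL8, PPBP and CXCL2. CXCL6 fell from 11.26 to 7.42 (-3.84), and CXCL1, CXCL5 and CXCL8, chemokines that attract neutrophils, fell by 1.38, 1.27 and 1.25 from parental levels between 11.90 and 12.77. CXCL2 fell from 6.45 to 5.42, and PPBP was at the bottom in both groups. In EFO-21 7.15% of all genes were called lower. CXCL5 rose in OV-90 (2.04), Kuramochi (2.17) and OVSAHO (2.06), starting from the bottom in the last pair of lines, and was thus the neighbor with the same directions as EREG in all 4 lines. In OV-90, 4 neighbors fell and 2 rose, beside 6.56% and 9.5% of all genes, with the limit given above for the calls of that line. CXCL1, CXCL2, CXCL3 and CXCL6 fell there (-1.47, -1.19, -1.09 and -2.65) and PARM1 rose (2.61), whereas CXCL6, RASSF6 and PARM1 rose in OVSAHO (1.59, 1.04 and 1.06). In Kuramochi 6 of the 15 fell, beside 10.6% of all genes, namely BTC, RASSF6 (-2.19), PARM1 (-1.65), MTHFD2L (-1.38), RCHY1 (-1.25) and CXCL2 (-1.11). PF4 and PPBP, which are platelet genes, fell in OVSAHO (-3.98 and -5.43) together with HBB (-5.23), in the line whose parental libraries held the blood genes. The EREG direction was therefore not that of its neighborhood as a whole, since in OV-90, Kuramochi and OVSAHO the genes around it moved in both directions, with list medians of -0.41, -1.11 and 0.03, against -1.09 in EFO-21.

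**Figure D5:**
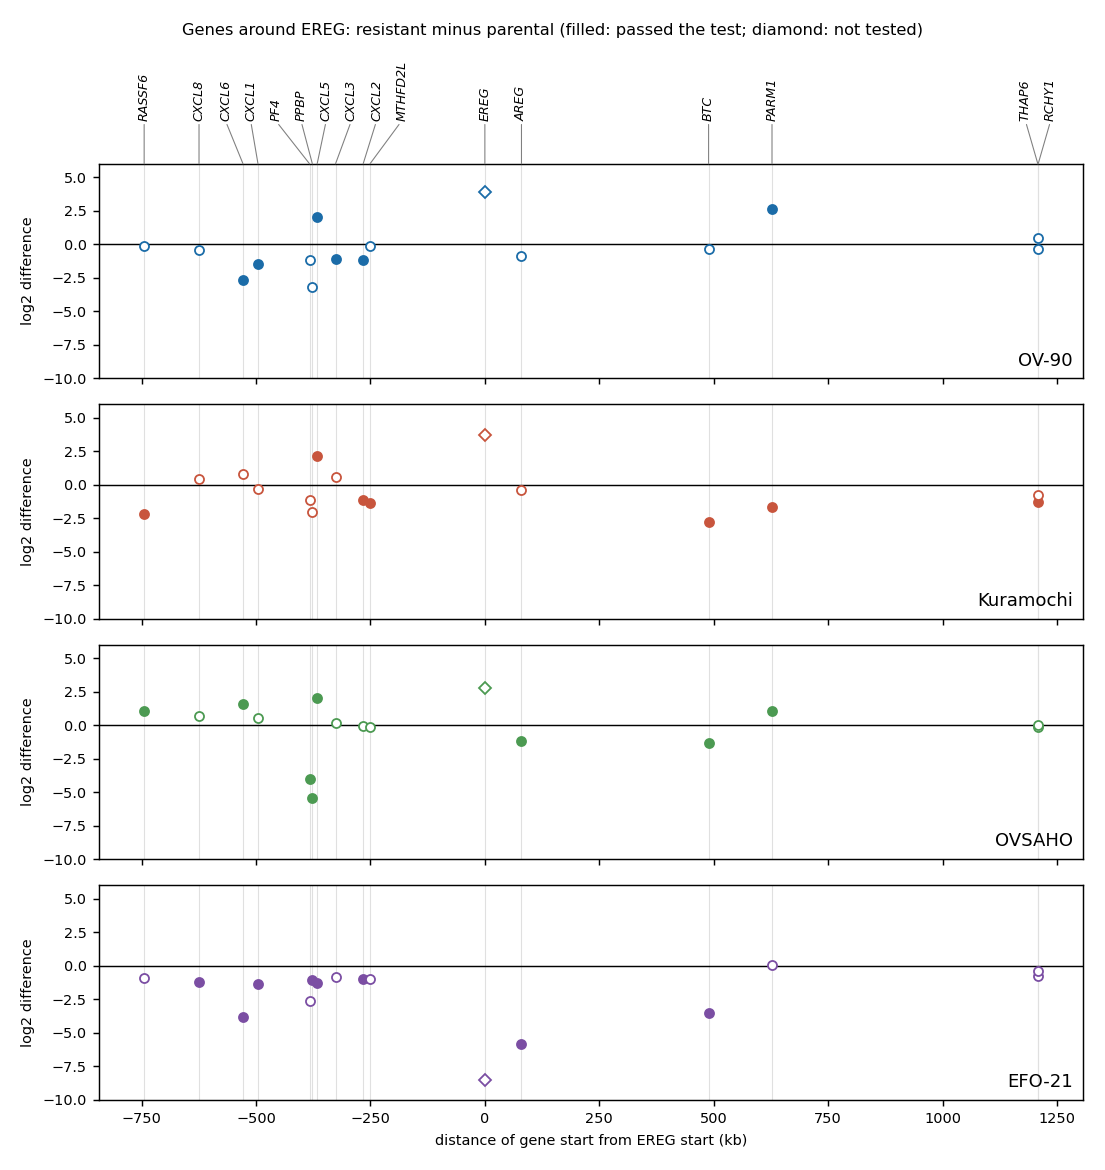
Log2 difference between resistant and parental group means (y axis) of the genes around EREG against the distance of their starts from the EREG start in kb (x axis), in 1 panel per line, with filled points for genes that passed the test. In EFO-21 the points of EREG (-8.55), AREG (-5.81) and BTC (-3.56) are below those of most chemokine genes, while in the other 3 lines EREG lies above its neighbors.

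The genes whose values followed EREG most closely were found by Pearson correlation over the 23 libraries, as a description, among 16711 genes that exceeded the median gene mean in their highest group. With each line centered on the midpoint of its parental and resistant means, these were PAM (r = 0.97), NTS (0.96), PHLDA1 (0.95), MTUS1 (0.95) and SNX9 (0.95). The libraries share their lines, and the EFO-21 fall dominates the EREG values. PAM, for example, differed by -1.38 in EFO-21 and by 0.71, 0.46 and 0.21 in OV-90, Kuramochi and OVSAHO, and NTS, the neurotensin gene, by -3.21, 1.23, 0.94 and 0.97. Without centering, the closest genes were ADA2 (0.94), VBP1 (0.92), PIGR (0.91), PELO (0.90) and SOD2 (0.90). ADA2, also a value of 1 exon, went from 11.32 to 5.37 in EFO-21 and from 0.20 to 4.15 in OV-90, and PIGR from 9.41 to 4.68 in EFO-21 while its group means in the other lines were at 2.29 or lower. Among the members, the centered r with EREG was 0.83 for EGF, 0.75 for ERBB3, 0.66 for AREG, 0.56 for EGFR, 0.33 for TGFA, 0.30 for BTC, 0.14 for HBEGF, -0.08 for NRG1 and -0.61 for ERBB2.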

How the data were processed

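Total RNA of the 23 libraries was sequenced by the authors from TruSeq Stranded mRNA libraries. According to the methods, reads were aligned to GRCh37/hg19, weakly covered exons were removed (a minimum of 10 reads, not reached in over 80% of the samples), and the rest were summarized per gene and quantile normalized. The deposited values are log2 expression values, 16448 genes from a robust linear model and 5210 from a mean of log2 exon values. The table holds no counts or library totals, so depth is unknown and precision rests on the spread between libraries. Symbols came from RefSeq (20745 of 21658 IDs). No column belonged to other samples.

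Groups were fitted per line with limma 3.58.1 in R 4.3.3 (two-sided, mean-variance trend, no filter), and line differences in 1 fit of all libraries. The procedure was tested on simulated data in which a gene had the same SD in every group. The lower correlation of the parental OV-90 pair was therefore not reproduced in that test. An exact permutation test of 3 against 3 libraries cannot give a p below 0.1, so none was used. AREG was aligned to GRCh37 with minimap2. Members, gene lists and rules were chosen with earlier results of these data known. Named genes were all members, list genes called in a line (at most 3 rises and 3 falls per list and line), all other family members and called neighbors, and the 5 genes most like EREG with and without centering. Marker genes were also named outside this rule to describe the libraries. Alternatives were 1 fit of all libraries, no trend, weakly expressed genes left out, recentring, a 1.5-fold threshold and leaving out each library.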

Additional observations from a re-analysis of the deposited data

Results flagged for a closer look

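The following members were singled out because their change in 1 line differed from the mean change of the other 3 lines in the test of that difference (adjusted p under 0.05 by limma and at least 2-fold). In EFO-21 the differences were -4.99 for AREG, -2.10 for BTC, -2.0 for ERBB3, -1.70 for TGFA, -1.46 for EGFR and -1.19 for EGF. In Kuramochi they were 4.04 for TGFA, 2.25 for AREG, 1.04 for EGFR and -1.05 for BTC. In OV-90 they were 1.57 for AREG and 2.23 for BTC, which was at the bottom in that line. In OVSAHO they were 1.17 for AREG and -2.01 for TGFA, most of whose libraries there were at the bottom. The TGFA values of EFO-21 and OVSAHO are set against a mean that includes the Kuramochi difference of 5.07, which starts from the bottom. The BTC values of Kuramochi and EFO-21 are set against means that include OV-90, where BTC was at the bottom. In the same way, the EFO-21 means include Kuramochi for ERBB3 and OVSAHO for EGF, where those genes were at the bottom.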

How the results depend on the processing

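No paired analysis was possible because the columns carry library numbers but no replicate numbers. One fit of all libraries, no mean-variance trend and recentring kept every count of called members and genes within 1.5 times and every member on its side of the threshold. At 1.5-fold, 5 members were called in OV-90 and 6 in EFO-21, and over all genes 6195, 7687, 3169 and 5594 in OV-90, Kuramochi, OVSAHO and EFO-21. With weakly expressed genes left out, fewer members were tested, and 1 was called in each of Kuramochi, OVSAHO and EFO-21, with 3006, 874 and 1661 genes in all, and 1, 2, 1 and 2 line differences in OV-90, Kuramochi, OVSAHO and EFO-21. Leaving out 1 library at a time gave 0 to 3 called members in OV-90, 1 to 2 in OVSAHO and 3 in Kuramochi and EFO-21, 309 to 5975 genes in OV-90, 4549 to 4893 in Kuramochi, 1484 to 1688 in OVSAHO and 2866 to 2936 in EFO-21, and 2 to 3, 3 to 5, 1 to 2 and 6 line differences in OV-90, Kuramochi, OVSAHO and EFO-21. Signs turned for small member values: ERBB3 in OV-90 ranged from -0.21 to 0.31, AREG in Kuramochi from -0.63 to 0.049 (0.028 without resistant library 18) and EGF in Kuramochi from -0.073 to 0.168, and of the line differences EGF in Kuramochi from -0.16 to 0.076 and EGFR in OVSAHO from -0.15 to 0.018. The cause was not tested. Of 147 recomputed EREG values, 147 kept their direction. This is no test of EREG, which was chosen for these directions and whose groups overlapped in no line. Without read counts, no detection limit could be given for members at the bottom.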
